A study of Mus musculus with 15 samples.

Results

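The change with time of Actb knockout (KO) fibroblasts in osteogenic culture was followed across all genes, by setting the 3 KO libraries of day 14 against the 3 KO libraries of day 4. These 6 libraries, chosen by genotype and day from the sample labels, are part of a series of 15 bulk RNA-seq libraries in 5 groups of 3. Actb encodes beta-actin, and the series asks how expression differs among reprogrammed cells that are wild type (WT), heterozygous or KO for it. All groups are mouse embryonic fibroblasts of strain BALB/c, from embryos of 10.5 days, obtained from an outside laboratory. They were grown to confluence in DMEM with serum on Matrigel, an extract of basement membrane, and then given OsteoMax-XF, a commercial osteogenic medium, with dexamethasone and forskolin, each at 5 mM according to the labels. The switch of medium is day 0, and the medium was renewed every 2 days. Dexamethasone is a glucocorticoid, and forskolin raises cyclic AMP by activating adenylyl cyclase. Thus the KO cells of day 14 and of day 4 share genotype, strain and treatment and differ in time in that medium. The labels name no embryo, culture or batch, so p-values measure only the spread between libraries, which may be technical, and day cannot be told apart from the harvest or library preparation of that day.

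Osteogenic medium is used to bring fibroblasts and stromal cells toward osteoblasts, which lay down type I collagen and mineral and are driven by the transcription factors Runx2 and Sp7. Actin enters this through MRTF, a coactivator that monomeric actin holds away from the factor SRF, so that genes of the contractile apparatus follow the state of the actin pool. Interferon signalling runs from secreted interferons or nucleic acid sensors through JAK kinases, STAT proteins and IRF factors to a large set of antiviral genes, in fibroblasts as in most cells.

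Levels are CPM, counts scaled to library sizes corrected by TMM, given for the 3 libraries of a day or as mean ± SD (n = 3 each). Changes are log2 fold changes of day 14 over day 4 ± SE. A gene "rose" or "fell" where its adjusted p was under 0.05 (edgeR's quasi-likelihood test, Benjamini-Hochberg over all genes). The KO libraries held 21.5 to 24.8 M counts on day 14 and 30.7 to 35.7 M on day 4. Mitochondrially encoded genes took 1.08% to 1.12% of counts on day 14 and 0.836% to 0.845% on day 4, and ribosomal protein genes 2.12% to 2.14% on day 14 and 2.32% to 2.33% on day 4. The day carried 93.6% of the variance of the 6 libraries on the leading principal component.

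The targeted gene was low in every KO library. Actb (ENSMUSG00000029580, chr5:142903115-142906754, minus strand of GRCm38) had 46.5, 43 and 44.6 CPM on day 14 and 129.8, 139 and 134 CPM on day 4, without overlap, whereas WT cultures had 2994 ± 62.6 CPM on day 14 and 1180.4 ± 15.1 CPM on day 4. Counts over a whole gene do not separate exons, so the remaining reads do not show whether the deleted part is transcribed. Actb reads fell further with time in KO, with a change of -1.59 ± 0.06 on the log2 scale (adjusted p = 1.4e-12, edgeR, lower in 3 of 3 libraries).

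Of 15296 genes tested in KO, 4712 were higher (30.8%) and 4604 lower (30.1%) on day 14 than on day 4, 60.9% in all. By 2-fold or more, 1611 rose (10.5%) and 1560 fell (10.2%). Below, percentages beside counts of list members that rose or fell are of members tested, unless marked as of all genes. They are to be read against the shares of all genes given here. The median change was 0, with quartiles of -0.45 and 0.43. Libraries of the 2 days did not overlap for 74.2% of genes, 37% in the upward and 37.2% in the downward direction, so a share near these values sets no list apart. Among lists with at least 10 members tested, the medians furthest on the side of day 14 were those of the interferon response, complement and acute phase genes and replication histones, and furthest on the side of day 4 those of smooth muscle, matrix glycoprotein and cholesterol synthesis genes.

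**Figure D1:**
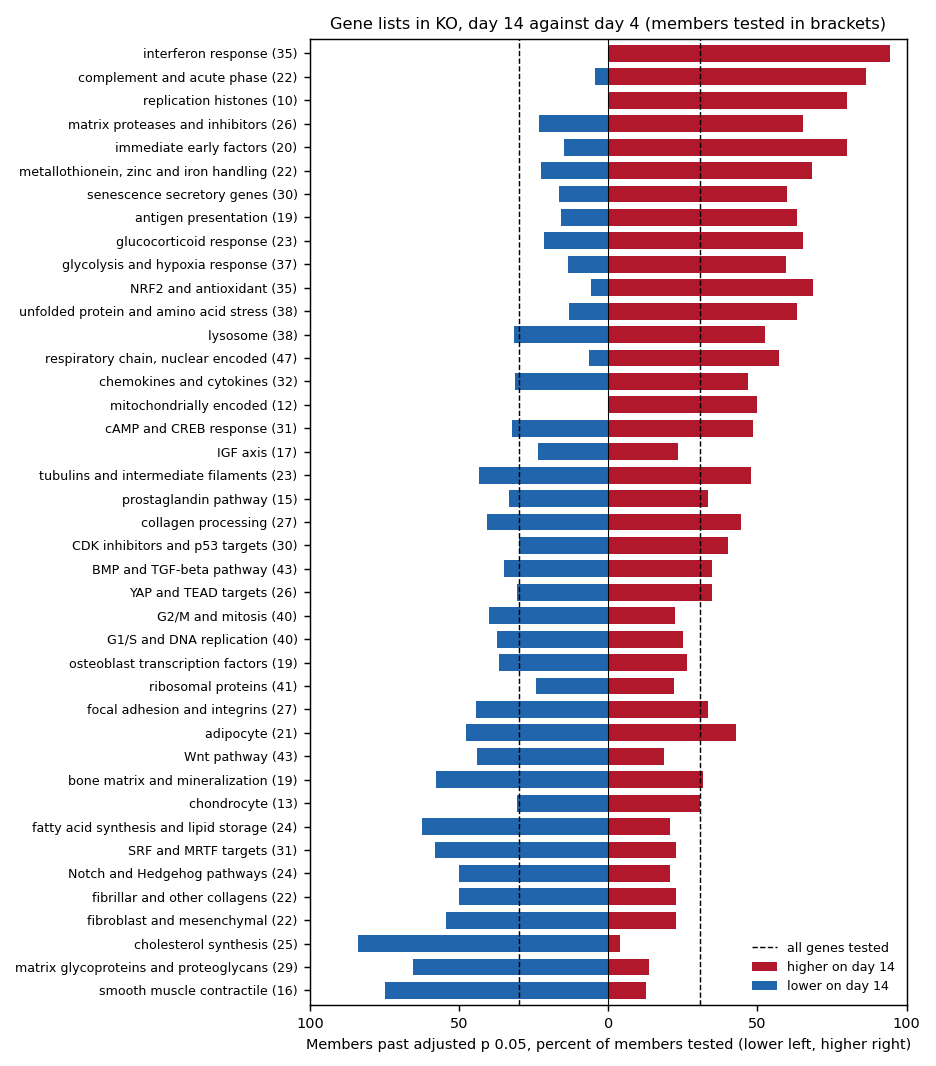
Share of each list's tested members that rose (right) or fell (left) in KO, day 14 against day 4, in percent of members tested, with that number in brackets, for lists with at least 10 members tested, ordered by median log2 change. Dashed lines mark all genes tested, 30.8% higher and 30.1% lower; interferon response genes stand at the top with 33 of 35 higher and smooth muscle genes at the bottom with 12 of 16 lower.

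Antiviral genes of the interferon response rose in KO more than any other list described here, most of them from a level near 0. Of 35 members tested, 33 rose (30.8% of all genes), 32 of them by 2-fold or more (10.5% of all genes), and none fell. Their median change was 5.81, against 0 over all genes. The members that did not pass the test were Irf1, an early interferon-induced transcription factor, at 0.00 ± 0.07, and Ifit2, an inhibitor of translation of viral RNA, at 0.07 ± 0.08.

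The ligands of the pathway were barely detected. Ifnb1, which encodes interferon beta, had 0.169, 0.183 and 0.079 CPM on day 14 and 0, 0 and 0 CPM on day 4. It was under the filter for low counts and was not tested. Ifna4, an interferon alpha gene, had 1 count in each of 2 libraries of day 14 and none on day 4. Of the receptor chains, Ifnar2 had 65.1, 70.3 and 66.8 CPM on day 14 and 34.8, 34.3 and 30.9 CPM on day 4 and rose by 1.01 ± 0.07. Ifnar1, its partner chain, rose less, by 0.30 ± 0.06, and the interferon gamma receptor chain Ifngr1 stood at 0.01 ± 0.07 with overlapping libraries. The receptor-bound kinases did not pass the test, with Jak1 at 0.17 ± 0.07 and Tyk2 at -0.03 ± 0.13. Jak1 passed when the fit held only the 6 KO libraries, at 0.17.

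Several sensors of foreign nucleic acid, picked after their values were seen, rose. Tlr3, an endosomal receptor for double-stranded RNA, had 26.6, 27.7 and 24.8 CPM on day 14 and 2.96, 3.39 and 4.78 CPM on day 4, and its change was 2.82 ± 0.19. Tmem173, which encodes the DNA-sensing adaptor STING, had 31.7, 33.1 and 29.7 CPM on day 14 and 2.53, 1.76 and 1.4 CPM on day 4, with a change of 4.05 ± 0.13. Libraries of the 2 days were clearly apart for both genes. The cytosolic RNA helicases Ifih1 (MDA5) and Ddx58 (RIG-I) rose by 4.13 ± 0.10 and 2.43 ± 0.11, and their adaptor Mavs by 0.38 ± 0.08. Irf3, the transcription factor these sensors activate, stood at -0.04 ± 0.10 and did not pass.

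Downstream factors followed. Irf7, a transcription factor that amplifies interferon production, had 69.4, 69.2 and 70.6 CPM on day 14 and 0.814, 1.15 and 0.715 CPM on day 4, a change of 6.29 ± 0.12 (adjusted p = 7.8e-16, edgeR, higher in 3 of 3 libraries). Stat2 rose by 0.30 ± 0.06 and Irf9, which binds DNA with STAT proteins, by 1.98 ± 0.06. Thus Irf7 was near its floor on day 4, whereas Stat2 and Irf9 were already clearly expressed.

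Effector genes showed the widest gaps. Rsad2 (ENSMUSG00000020641, chr12:26442746-26456452, minus strand), which encodes the antiviral radical-SAM enzyme viperin, had 70.2, 68.6 and 75.7 CPM on day 14 and 0, 0.032 and 0.0275 CPM on day 4. Its 5080 counts of day 14 stood against 2 of day 4, a ratio of 3614-fold (95% counting interval 1000.0 to 29850). The interval covers counting error only. Ifi44, an interferon-induced GTPase-like protein, had 106, 100.4 and 95.9 CPM on day 14 and 0.241, 0.383 and 0.22 CPM on day 4 and rose by 8.48 ± 0.15. Gbp3, a guanylate-binding protein that attacks intracellular pathogens, had 101, 108 and 102 CPM on day 14 and 0.483, 0.639 and 0.495 CPM on day 4 and rose by 7.59 ± 0.11. For none of these genes did a library of day 4 reach 1 CPM, and the libraries of day 14 lay far above.

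Several effectors had no count at all on day 4. Cmpk2, a mitochondrial nucleotide kinase next to Rsad2 in the genome, had 20.7, 19.7 and 19.5 CPM on day 14 and 0, 0 and 0 CPM on day 4, at least 672-fold higher with day 4 set at 3 counts over the group. Mx1, a GTPase active against influenza viruses, was at least 362-fold higher on the same floor, and Ddx60, a helicase that assists RNA sensing, at least 352-fold. Iigp1, an immunity-related GTPase, had 45.4, 44.7 and 46.1 CPM on day 14 and 0.0302, 0 and 0 CPM on day 4. That day 4 level was 1 count, for a ratio of 4579-fold (95% counting interval 821 to 180900). Oas2 and Oas3 encode oligoadenylate synthetases, whose product switches on RNA decay, and Oasl1 and Oasl2 encode relatives of them. Oasl2 averaged 61.9 ± 3.33 CPM on day 14 and 0.171 ± 0.0736 CPM on day 4, a change of 8.48 ± 0.14, Oas3 averaged 43.5 ± 2.29 CPM on day 14 and 0.0582 ± 0.0253 CPM on day 4, and Oasl1 averaged 45.8 ± 1.31 CPM on day 14 and 0.104 ± 0.105 CPM on day 4. Ifit1, which binds viral RNA ends, averaged 77 ± 1.87 CPM on day 14 and 0.962 ± 0.194 CPM on day 4, a change of 6.30 ± 0.12. Isg15, a ubiquitin-like modifier, averaged 106 ± 3.49 CPM on day 14 and 1.52 ± 0.213 CPM on day 4, and Usp18, which removes it, rose by 7.14 ± 0.22. Members of the Gbp, Oas and Ifit families share sequence, and how reads that fit several copies were counted is not given in the sources used here, so the split between close relatives is uncertain.

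**Figure D2:**
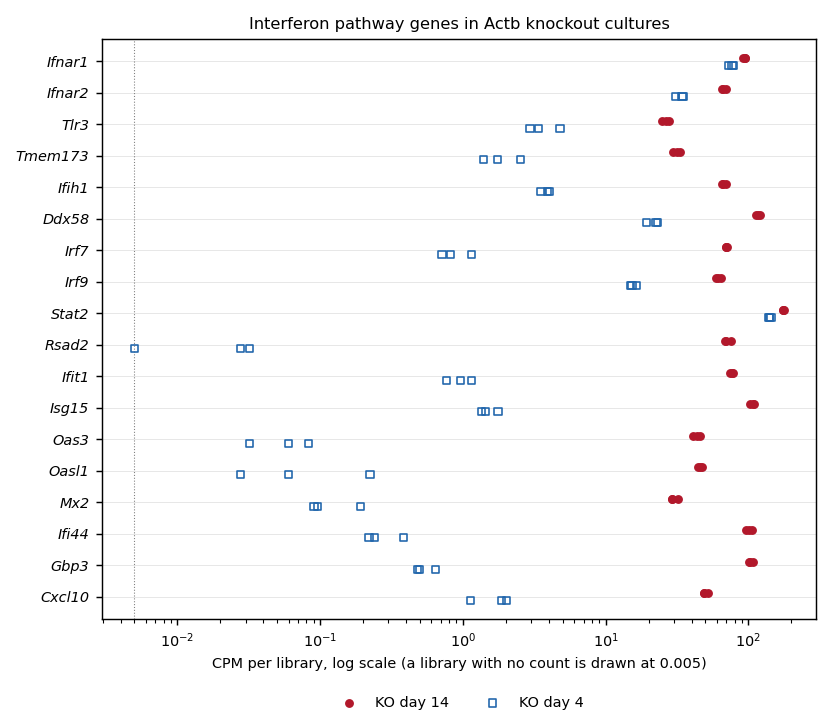
CPM per library on a log axis for 18 genes of the interferon pathway in KO, 3 libraries of day 14 (filled circles) and 3 of day 4 (open squares), ordered as receptors, sensors, transcription factors, effectors and the chemokine Cxcl10. Receptors, at the top, differ less, and effectors lie far to the right on day 14, Rsad2 at a mean of 71.5 CPM against 0.0198 CPM on day 4; levels compare libraries for a gene, not genes with each other.

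Promoters of 3 effectors that rose and of 1 contractile gene that fell are shown because the lists they stand for changed together. They are the 250 bases before the annotated start, 5′ to 3′ on the gene's strand, from RefSeq on GRCm38.p6, with capitals on motif matches: Rsad2 (chr12:26456453-26456702, minus strand), Ifit1 (chr19:34640639-34640888, plus strand), Isg15 (chr4:156200819-156201068, minus strand) and Myl9 (chr2:156775214-156775463, plus strand).
Rsad2: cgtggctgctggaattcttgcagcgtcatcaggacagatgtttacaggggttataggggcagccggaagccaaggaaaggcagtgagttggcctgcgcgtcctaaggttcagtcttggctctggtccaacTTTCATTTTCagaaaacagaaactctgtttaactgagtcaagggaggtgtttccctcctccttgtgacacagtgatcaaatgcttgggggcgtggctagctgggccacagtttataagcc
Ifit1: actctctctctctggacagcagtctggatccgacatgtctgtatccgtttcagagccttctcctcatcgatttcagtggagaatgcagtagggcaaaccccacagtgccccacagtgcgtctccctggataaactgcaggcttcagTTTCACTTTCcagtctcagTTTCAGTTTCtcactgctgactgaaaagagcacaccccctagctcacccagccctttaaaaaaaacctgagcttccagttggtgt
Isg15: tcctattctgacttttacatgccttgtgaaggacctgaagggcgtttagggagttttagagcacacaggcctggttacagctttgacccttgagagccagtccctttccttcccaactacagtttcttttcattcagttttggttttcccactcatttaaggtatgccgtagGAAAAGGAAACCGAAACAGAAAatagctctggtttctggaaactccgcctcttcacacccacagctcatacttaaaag
Myl9: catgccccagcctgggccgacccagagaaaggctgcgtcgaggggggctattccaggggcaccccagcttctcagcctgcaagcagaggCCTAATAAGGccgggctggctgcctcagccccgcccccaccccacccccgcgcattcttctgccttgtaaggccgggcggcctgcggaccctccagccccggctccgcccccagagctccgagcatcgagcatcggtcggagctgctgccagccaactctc
The capitals mark the interferon-stimulated response element, spelled GAAANNGAAA and searched on both strands, in Rsad2 (1 match), Ifit1 (2 matches) and Isg15 (3 overlapping matches), and the CArG box bound by SRF in Myl9 (1 match). Of 25 interferon list genes with a promoter in the RefSeq table, 13 held the element (52%), against 936 of 27025 genes in that table (3.46%) and 978 of its 32851 promoters (2.98%). The CArG box lay in the same window of 3 of 16 smooth muscle genes (18.8%), Cnn2, Myl6 and Myl9, and of 5 of 28 SRF and MRTF targets (17.9%), against 439 of all genes (1.62%) and 482 of all promoters (1.47%). A match describes these letters and is no evidence of binding, and its absence from 250 bases says nothing of the factor.

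The defining markers of macrophages were low on both days, but not every gene of the wider list was. The 6 defining markers summed to 1.87 to 2.54 CPM on day 14 and 0.724 to 1.26 CPM on day 4. Adgre1 (F4/80) was at 0 on both days, and Ptprc (CD45) had 1 count on day 14 and none on day 4. Lyz2, the myeloid lysozyme, rose by 5.61 ± 0.61 to 2.16 CPM on day 14, against 0.042 CPM on day 4, while Csf1r, the receptor for the macrophage growth factor, fell (-3.77 ± 0.59). Of the wider list of 18 macrophage and leukocyte markers, 5 were tested, of which 2 rose and 1 fell. Cd68, a lysosomal protein abundant in macrophages, had 35.8, 39 and 38.8 CPM on day 14 and 5.16, 5.78 and 5.28 CPM on day 4 and rose by 2.81 ± 0.10. Cd14, a lipopolysaccharide coreceptor, averaged 81.6 CPM on day 14, against 79.5 CPM on day 4, and did not pass, and Mrc1, the mannose receptor, had 47 counts on day 14 and none on day 4. The part of such cells in the interferon result was not tested. In bulk RNA, fewer cells of a type and less RNA per cell cannot be told apart.

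Genes that load peptides for T cells rose with less uniformity. Of 19 antigen presentation genes tested, 12 rose (63.2%) and 3 fell (15.8%), with a median of 0.56. The non-classical class I genes H2-T23 and H2-T22 rose by 2.81 ± 0.12 and 2.15 ± 0.07. The immunoproteasome subunit Psmb8 had 35.6, 32.6 and 32.7 CPM on day 14 and 8.9, 10.5 and 8.82 CPM on day 4 and rose by 1.84 ± 0.16, and Tap1, a chain of the peptide transporter, rose by 1.13 ± 0.06. B2m, the shared light chain, and H2-K1, a classical heavy chain, stood at 0.11 ± 0.08 and 0.02 ± 0.08 and did not pass, though B2m passed with only the KO libraries (0.11) and with a correction for exon length and GC content (0.15). Nlrc5, the transactivator of class I genes, went the other way, with 34.1, 33.7 and 31.9 CPM on day 14 and 85.3, 85.7 and 86.6 CPM on day 4 and a change of -1.37 ± 0.09. The other members that fell were H2-Ab1, with 27 counts on day 14 and 383 on day 4, and H2-Q7, with 188 on day 14 and 690 on day 4. The H2 genes resemble each other closely, and their counts carry the same uncertainty as the Gbp and Oas genes.

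Secreted defence proteins rose as a group. Of 22 complement and acute phase genes tested, 19 rose (86.4%, against 30.8% of all genes) and 1 fell (4.5%, against 30.1% of all genes). The rise was 2-fold or more in 17 (10.5% of all genes), and the median was 1.91. Cfb, complement factor B of the alternative pathway, had 23.5, 27.1 and 28.1 CPM on day 14 and 0.211, 0.352 and 0.495 CPM on day 4 and rose by 6.18 ± 0.22. Saa3, an acute phase serum amyloid, had 2004, 1950.0 and 1987 CPM on day 14 and 385, 382 and 379 CPM on day 4 and rose by 2.37 ± 0.14. C3, the central complement protein, had 2085, 2124 and 2196 CPM on day 14 and 896, 891 and 893 CPM on day 4 and rose by 1.26 ± 0.11. Saa3 and C3 were already clearly expressed on day 4, whereas Cfb was under 1 CPM. Lbp, which binds bacterial lipopolysaccharide, rose by 2.88 ± 0.05, Orm1, an acute phase carrier protein, by 3.24 ± 0.09, Lcn2, a siderophore-binding lipocalin, by 1.19 ± 0.08, and Serping1, the inhibitor of the C1 proteases, by 4.06 ± 0.15. The exception was C1s1, a C1 protease, which fell to 25.7 CPM on day 14, against 41.7 CPM on day 4, a change of -0.70 ± 0.06.

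Cytokine genes divided. Of 32 chemokines and cytokines tested, 15 rose (46.9%) and 10 fell (31.2%), with a median of 0.26. Il33 (ENSMUSG00000024810, chr19:29925114-29960718, plus strand), a nuclear alarmin of barrier and stromal cells, had 282, 284 and 283 CPM on day 14 and 5.67, 5.98 and 5.33 CPM on day 4 and rose by 5.64 ± 0.09 (adjusted p = 1.15e-16, edgeR, higher in 3 of 3 libraries). Its receptor gene Il1rl1 changed in the opposite direction, with 1.9, 1.28 and 1.94 CPM on day 14 and 35.4, 35.1 and 34.3 CPM on day 4 and a change of -4.34 ± 0.10. Neither gene had overlapping libraries. Cxcl9 and Cxcl10 attract T cells and are interferon-induced. Cxcl9 was at least 469-fold higher, and Cxcl10 rose by 4.92 ± 0.15. Cxcl2 and Csf3, which recruit and raise neutrophils, rose by 3.93 ± 0.13 and 3.38 ± 0.10, and the inflammatory cytokines Il6 and Il1a by 1.81 ± 0.11 and 4.84 ± 0.27. Il1rn, which encodes an antagonist of the receptor Il1r1, fell (-3.62 ± 0.09) to 4.99 CPM on day 14, against 61.3 CPM on day 4. Cxcl12, a stromal chemokine that holds blood progenitors, fell (-1.55 ± 0.06). Genes linked to the secretory phenotype of senescent cells share cytokines and proteases with these lists. Of 30 tested, 18 rose (60%) and 5 fell (16.7%), with a median of 0.59.

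Smooth muscle actins and most contractile genes went down in KO over the same interval. Of 4 actin genes tested, 3 fell and none rose, each that fell by more than 2-fold. Those that fell were Acta2, Actg2 and the targeted gene Actb, whose values are given above. Acta2 (ENSMUSG00000035783, chr19:34241090-34255590, minus strand), the smooth muscle alpha-actin, had 499, 491 and 475 CPM on day 14 and 2108, 2127 and 2110.3 CPM on day 4, a change of -2.12 ± 0.07 (adjusted p = 4.74e-13, edgeR, lower in 3 of 3 libraries). Actg2, the enteric smooth muscle gamma-actin, had 5.2, 4.8 and 5.85 CPM on day 14 and 95.3, 98.4 and 91.8 CPM on day 4, a change of -4.17 ± 0.12. Actg1, the cytoplasmic gamma-actin, had 2515, 2480.4 and 2483 CPM on day 14 and 2288, 2332 and 2331 CPM on day 4, at 0.11 ± 0.10. Actg1 did not pass the test with all 15 libraries (adjusted p = 0.384, edgeR) and passed, at 0.11, with only the KO libraries. Acta1 and Actc1, the striated muscle actins, had 0 and 1 counts on day 14 and 11 and 0 on day 4. Actin genes are near-identical over their coding sequence, so counts of low members may hold reads of others.

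Smooth muscle genes, a list that holds Acta2 and Actg2 too, shared that direction. Of 16 members tested, 12 fell (75%), 9 of them by 2-fold or more (10.2% of all genes), and 2 rose (12.5%). The median was -1.21, against 0 over all genes. Myl9, a regulatory myosin light chain, had 31.7, 30.5 and 29.9 CPM on day 14 and 477, 487 and 473 CPM on day 4, a change of -3.96 ± 0.10. Cnn1, the actin-binding calponin of smooth muscle, had 2.11, 3.47 and 4.31 CPM on day 14 and 112, 109 and 108 CPM on day 4, a change of -5.05 ± 0.19. Tagln (SM22), an actin bundler, had 17.6, 19 and 17.8 CPM on day 14 and 95.6, 95.3 and 99.4 CPM on day 4, a change of -2.42 ± 0.09. In none of these 3 genes did a library of day 14 come near those of day 4. The tropomyosins Tpm1 and Tpm2, which lie along the filament, fell (-1.15 ± 0.05 and -1.27 ± 0.13), and Lmod1, which nucleates it (-2.24 ± 0.18). Itga8, an integrin chain of contractile cells, fell to 0.0566 CPM on day 14, against 2.83 CPM on day 4. Des, the muscle intermediate filament desmin, rose by 1.73 ± 0.12, and Synpo2, an actin-associated protein of the Z-disc, by 1.15 ± 0.34. Myh11, the smooth muscle myosin heavy chain, had 9 counts on day 14 and 16 on day 4 and was not tested.

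**Figure D3:**
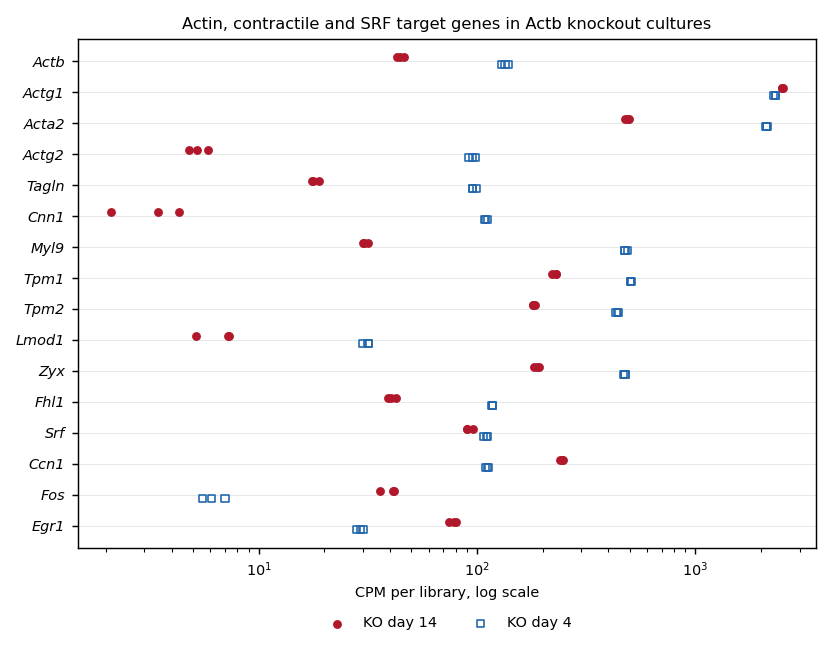
CPM per library on a log axis for actins, contractile genes and SRF targets in KO, 3 libraries of day 14 (filled circles) and 3 of day 4 (open squares). Contractile genes lie to the left on day 14, Myl9 at a mean of 30.7 CPM against 479 CPM on day 4, whereas the early response genes Ccn1, Fos and Egr1, at the bottom, lie to the right.

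Targets of SRF and its MRTF coactivators fell more often than they rose. Of 31 tested, 18 fell (58.1%) and 7 rose (22.6%), with a median of -0.41. Those that fell included Zyx, a focal adhesion protein, at -1.34 ± 0.05, Fhl1, a LIM-domain protein, at -1.53 ± 0.07, and the actin crosslinker Flna at -0.76 ± 0.12. Srf itself fell (-0.25 ± 0.05). Fos, an AP-1 subunit, had 41.8, 41.2 and 35.8 CPM on day 14 and 5.52, 6.1 and 7.01 CPM on day 4 and rose by 2.67 ± 0.12. Egr1, a zinc finger factor, rose by 1.42 ± 0.07, Ccn1, a matricellular protein, by 1.14 ± 0.05, and Myh9, a non-muscle myosin heavy chain, by 0.32 ± 0.10. Ccn2, a close relative of Ccn1, rose by 0.27 ± 0.11 (adjusted p = 0.0426, edgeR, higher in 3 of 3 libraries), a call lost without replicate 1 or replicate 3 of either day (0.22 to 0.28), with no filter (0.26) and with the length and GC correction (0.13). Of 26 YAP and TEAD targets tested, 9 rose and 8 fell, near the shares of all genes, and Yap1 and Tead1, the coactivator and its DNA-binding partner, stood at 0.06 ± 0.06 and -0.21 ± 0.15 and did not pass, though both passed with only the KO libraries (0.06 and -0.20). Among focal adhesion and integrin genes, 9 of 27 rose (33.3%) and 12 fell (44.4%). Itgb3, the beta chain of the vitronectin receptor, fell (-4.16 ± 0.21) and Itga1, a collagen receptor chain (-2.04 ± 0.18), while Itga6, a laminin receptor chain, rose by 1.53 ± 0.12.

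Immediate early factors, the transcription factors induced within minutes by growth factors and stress, were higher on day 14. Of 20 tested, 16 rose (80%) and 3 fell (15%), with a median of 0.91. Besides Fos and Egr1, the AP-1 members Junb and Fosl1 rose by 0.97 ± 0.08 and 1.34 ± 0.06, Atf3, a stress-induced factor, by 1.45 ± 0.06, and Zfp36, which destabilizes cytokine mRNA, by 1.66 ± 0.06. Ier3 fell (-0.45 ± 0.09). Ier5 and Fosl2 fell (-0.20 ± 0.08 and -0.26 ± 0.09), but the call of Ier5 was lost without any 1 of the 6 libraries (-0.22 to -0.17) and with DESeq2 or RLE scaling (-0.19), and that of Fosl2 without replicate 1 or 3 of day 4 or replicate 1 or 2 of day 14 (-0.25 to -0.22), where 1 member fell.

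Genes that answer to the drugs in the medium, present from day 0 on, moved in both directions. Of 23 glucocorticoid response genes tested, 15 rose (65.2%) and 5 fell (21.7%), with a median of 0.56. Fkbp5, a chaperone that glucocorticoid receptor induces, had 221, 221 and 226 CPM on day 14 and 152, 149 and 153 CPM on day 4 and rose by 0.56 ± 0.04. Tsc22d3 (GILZ), an anti-inflammatory target, had 105, 109 and 103 CPM on day 14 and 147, 149.9 and 153 CPM on day 4 and fell (-0.51 ± 0.08). Hence these 2 standard targets went opposite ways, each with no overlap. Glul, glutamine synthetase, rose by 2.16 ± 0.05, Hsd11b1, which regenerates active glucocorticoid in cells, by 4.46 ± 0.34, and Sgk1, a kinase, fell (-1.04 ± 0.06). Of 31 cyclic AMP response genes, 15 rose (48.4%) and 10 fell (32.3%), with a median of 0.24. Pde4b, a phosphodiesterase that degrades cyclic AMP, had 159, 157 and 159 CPM on day 14 and 34.6, 34.9 and 37.2 CPM on day 4 and rose by 2.15 ± 0.07, Rgs2, which restrains G protein signals, rose by 5.76 ± 0.39, and Crem, a feedback repressor, fell (-1.02 ± 0.10).

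Genes of bone formation gave no common direction, and several defining genes of mature osteoblasts were at or near 0 counts. Of 31 bone matrix and mineralization genes, 19 had counts enough to be tested. Of these, 6 rose (31.6%) and 11 fell (57.9%), with a median of -0.27. Alpl (ENSMUSG00000028766, chr4:137741733-137796384, minus strand), tissue-nonspecific alkaline phosphatase, which frees phosphate for mineral, had 30.2, 31.6 and 34 CPM on day 14 and 3.35, 3.71 and 3.11 CPM on day 4, a change of 3.24 ± 0.09 (adjusted p = 7.92e-14, edgeR, higher in 3 of 3 libraries). Mgp, matrix Gla protein, an inhibitor of calcification, had 52.8, 55.6 and 56.2 CPM on day 14 and 3.35, 3.68 and 3.46 CPM on day 4, a change of 3.97 ± 0.17. Both were low on day 4 and separated without overlap. Tnfsf11 (RANKL), the osteoclast differentiation signal, had 4.99, 7.22 and 5.65 CPM on day 14 and 0.271, 0.288 and 0.632 CPM on day 4 and rose by 3.85 ± 0.21, and Phospho1, a phosphatase of matrix vesicles, rose by 1.03 ± 0.18.

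The bone genes that fell included the most abundant. Spp1 (ENSMUSG00000029304, chr5:104435118-104441050, plus strand), osteopontin, had 1781, 1729 and 1713 CPM on day 14 and 5100.0, 5074 and 5022 CPM on day 4, a change of -1.54 ± 0.09, and was the gene with the largest loss in CPM. Phex, an endopeptidase that clears mineralization inhibitors, had 0.0423, 0.0914 and 0.198 CPM on day 14 and 10.5, 12.5 and 11.3 CPM on day 4, a change of -6.61 ± 0.32. Ank, which exports pyrophosphate, had 26.3, 23.7 and 24.9 CPM on day 14 and 189, 193 and 189.7 CPM on day 4, a change of -2.93 ± 0.06. All 3 stood apart on the 2 days. Vdr, the vitamin D receptor, fell (-1.88 ± 0.08), Ogn, a small leucine-rich proteoglycan (-2.18 ± 0.11), and Ifitm5, an osteoblast membrane protein (-2.78 ± 0.47).

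Late osteoblast markers stayed near 0. Ibsp (bone sialoprotein) and Dmp1 (an osteocyte matrix protein) had no count in any KO library. With 3 counts as the limit that a count of 0 allows, their level was under 0.0423 CPM on day 14 and under 0.0298 CPM on day 4. Sp7 had 1 count on day 14 and 2 on day 4, and Bglap (osteocalcin) had 3 on day 14 and 25 on day 4. Bglap3, another list member, had 46 counts on day 14 and 18 on day 4. The labels call the cells chemically reprogrammed osteoblasts. Ibsp, Dmp1, Sp7 and Bglap were at or near 0 on both days, whereas Runx2, Alpl, Spp1 and Col1a1 were detected on both. Of the 11 osteoblast markers, 4 reached a mean of 1 CPM on day 14 and 7 on day 4. Whether the cells are osteoblasts was not tested. The 11 osteoblast markers summed to 2737 to 2830.0 CPM on day 14 and 5861 to 5936 CPM on day 4, nearly all of it Spp1 and Col1a1.

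Osteoblast transcription factors divided near the shares of all genes. Of 19 tested, 5 rose (26.3%) and 7 fell (36.8%), with a median of -0.07. Runx2, the master factor, had 33, 30.9 and 31.4 CPM on day 14 and 47.6, 51.8 and 53.1 CPM on day 4, a change of -0.68 ± 0.08, and Cbfb, its partner, fell (-0.48 ± 0.04). Runx1 rose by 0.66 ± 0.12, Cebpb, shared with fat cell differentiation, by 1.38 ± 0.13, and Twist1, which holds back Runx2, by 0.71 ± 0.09. The homeobox genes Dlx5 and Dlx6 fell. Dlx5 had 3 counts on day 14 and Dlx6 had 2, for ratios of day 4 to day 14 of 18.5-fold (95% counting interval 6.11 to 91.7) and 50.2-fold (95% counting interval 13.7 to 419).

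Matrix genes were lower on day 14 for the most part. Among fibrillar and other collagens, 11 of 22 tested fell (50%) and 5 rose (22.7%), with a median of -0.56. Col1a1, a chain of type I collagen, had 985, 967 and 958 CPM on day 14 and 771, 769 and 768 CPM on day 4 and rose by 0.33 ± 0.06. Col1a2, the other chain, had 0.0423, 0.229 and 0.079 CPM on day 14 and 3.11, 2.52 and 2.2 CPM on day 4 and fell (-4.47 ± 0.34). The heterotrimer needs both, and Col1a2 stayed low throughout. Col3a1 fell (-1.29 ± 0.05), Col6a3 to 1.55 CPM on day 14, against 64.2 CPM on day 4, a change of -5.35 ± 0.19, and Col12a1 (-2.76 ± 0.22), while Col5a3 rose by 2.70 ± 0.12. Collagen processing genes were even, with 12 of 27 rising (44.4%) and 11 falling (40.7%). P4hb and P4ha1, subunits of prolyl hydroxylase, rose by 0.85 ± 0.05 and 0.67 ± 0.04, and Pcolce, which enhances removal of the propeptide, fell (-1.86 ± 0.05).

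Of 29 matrix glycoproteins and proteoglycans tested, 19 fell (65.5%) and 4 rose (13.8%). The fall was 2-fold or more in 14 (10.2% of all genes), and the median was -1.11. Fn1, fibronectin, had 1161, 1223 and 1209 CPM on day 14 and 2404, 2418 and 2407 CPM on day 4, a change of -1.01 ± 0.19. Bgn, the small proteoglycan biglycan, had 1.18, 1.46 and 0.83 CPM on day 14 and 18.3, 19.1 and 18.4 CPM on day 4, a change of -4.01 ± 0.14. Tnc, tenascin C, had 5.07, 7.95 and 6.76 CPM on day 14 and 88.1, 84.5 and 88 CPM on day 4, a change of -3.72 ± 0.18. The days were separate for all 3 genes. Tgfbi, a cell-adhesion protein induced by TGF-beta, fell to 0.0668 CPM on day 14, against 1.83 CPM on day 4, a change of -4.61 ± 0.36, while Dcn, decorin, rose by 0.95 ± 0.07.

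Matrix-degrading enzymes moved against this. Of 26 proteases and inhibitors tested, 17 rose (65.4%) and 6 fell (23.1%). The rise was 2-fold or more in 14 (10.5% of all genes), and the median was 1.15. Mmp3, stromelysin, had 194, 191 and 180.2 CPM on day 14 and 17, 18.7 and 17.4 CPM on day 4, a change of 3.41 ± 0.10. Mmp13, an interstitial collagenase of bone and cartilage, had 43.6, 44.1 and 41.6 CPM on day 14 and 6.33, 5.3 and 5.77 CPM on day 4, a change of 2.89 ± 0.06. Neither gene overlapped between days. Serpine2, an inhibitor of thrombin and plasminogen activators, rose to 7.01 CPM on day 14, against 0 CPM on day 4. Timp3, the matrix-bound metalloprotease inhibitor, fell to 12.6 CPM on day 14, against 132 CPM on day 4, a change of -3.40 ± 0.19, while Timp1 rose by 0.51 ± 0.13. The list thus holds enzymes and inhibitors that rose together.

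**Figure D4:**
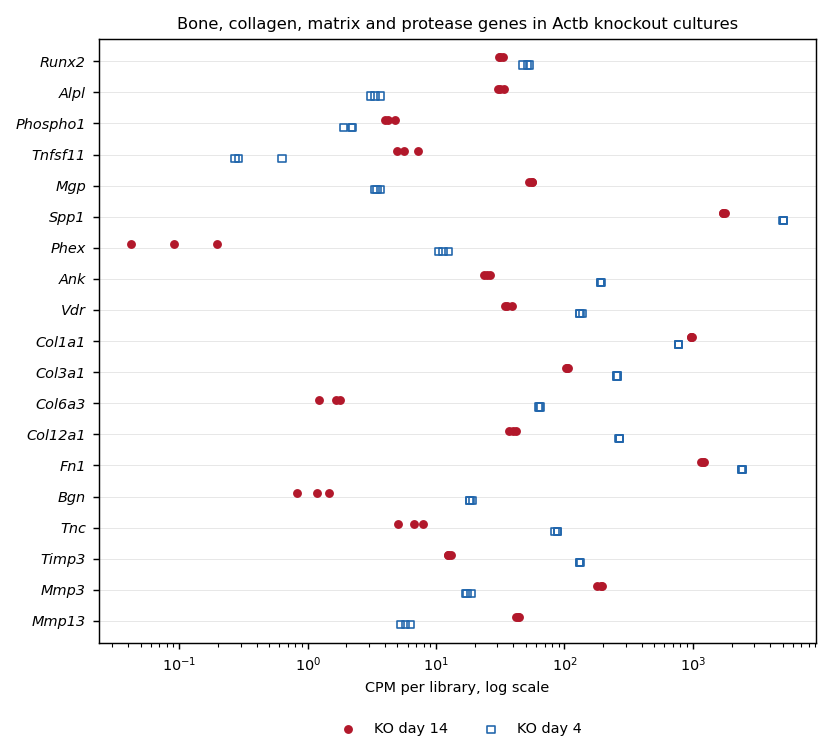
CPM per library on a log axis for bone, collagen, matrix and protease genes in KO, 3 libraries of day 14 (filled circles) and 3 of day 4 (open squares). Alpl, Mgp, Mmp3 and Mmp13 lie to the right on day 14, and Spp1, Phex, Col6a3, Bgn, Tnc and Timp3 to the left; most matrix genes show no overlap between days.

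Fibroblast identity genes fell more often than they rose. Of 22 tested, 12 fell (54.5%) and 5 rose (22.7%), with a median of -0.68. Pdgfrb, the PDGF receptor beta of mesenchymal cells, had 13.4, 17.4 and 17.4 CPM on day 14 and 177, 179.6 and 176 CPM on day 4, a change of -3.47 ± 0.12, and Pdgfra, its relative, had 69.9, 69.1 and 65.7 CPM on day 14 and 27.4, 25.4 and 24.4 CPM on day 4, a change of 1.41 ± 0.08. The pair thus moved apart. Prrx1, a limb and stromal homeobox factor, fell (-1.89 ± 0.09), and Dpt, a dermal matrix protein, fell to 1 count on day 14, a ratio of day 4 to day 14 of 202-fold (95% counting interval 35.9 to 7994). Pdpn (podoplanin) rose by 1.74 ± 0.05 and Vim (vimentin) by 1.28 ± 0.07.

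Other cell types were assessed by their markers. Of 21 adipocyte genes tested, 9 rose (42.9%) and 10 fell (47.6%), with a median of -0.15. Fabp4, a fatty acid carrier of fat cells and macrophages, had 416, 429.8 and 412 CPM on day 14 and 76.5, 80.4 and 76.1 CPM on day 4 and rose by 2.43 ± 0.14. Klf15, a factor of fat cell and glucocorticoid programs, had 54.5, 53.7 and 56.1 CPM on day 14 and 1.15, 0.831 and 1.29 CPM on day 4 and rose by 5.63 ± 0.10. Both were well apart on the 2 days, but Cidec and Lep were at 0 on both, Adipoq had 1 count on day 14, and Pparg, the master regulator of fat cells, fell (-0.85 ± 0.23) to 3 CPM on day 14, against 5.42 CPM on day 4. Of 13 chondrocyte genes, 4 rose and 4 fell (30.8% each), near the shares of all genes. Sox9, the cartilage master factor, rose by 0.50 ± 0.11, Comp fell (-3.87 ± 0.53), and Acan was at 0 on day 14. The 5 endothelial markers summed to 3.29 to 4.86 CPM on day 14 and 1.29 to 1.95 CPM on day 4, in which Kdr (a VEGF receptor) rose by 3.28 ± 0.30. The 5 epithelial markers summed to 9.37 to 10.35 CPM on day 14 and 0.192 to 0.275 CPM on day 4. Almost all of it was Krt14, a basal keratin, which rose by 6.09 ± 0.49, with Epcam and Esrp1 at 0 on both days. The part of such cells in any result was not tested.

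Signalling pathways of mesenchymal fate changed gene by gene. Of 43 Wnt genes tested, 19 fell (44.2%) and 8 rose (18.6%), with a median of -0.27. The ligand Wnt5a rose to 3.17 CPM on day 14, against 0.0994 CPM on day 4, a change of 4.93 ± 0.42, while Wnt10a, a ligand of the canonical branch, fell (-3.94 ± 0.30). The secreted regulators Sfrp2 and Rspo3 fell (-6.01 ± 0.31 and -1.01 ± 0.08), and the targets Axin2 and Lef1 (-0.79 ± 0.14 and -2.58 ± 0.57). Of 43 BMP and TGF-beta genes, 15 rose and 15 fell (34.9% each), near the shares of all genes. Grem1, a BMP antagonist, rose by 1.54 ± 0.05 and Smad7, a feedback inhibitor, by 1.45 ± 0.12. Tgfb1 rose by 1.15 ± 0.05, while Tgfb2 fell (-1.48 ± 0.14). Of 24 Notch and Hedgehog genes, 12 fell (50%) and 5 rose (20.8%), with a median of -0.46. The receptor Notch3 fell (-2.34 ± 0.12), the Hedgehog target Gli1 fell (-3.22 ± 0.46) and the transducer Smo (-1.23 ± 0.13), while the coreceptor Boc and the ligand Dll1 rose by 4.17 ± 0.14 and 3.93 ± 0.34. In the IGF axis, 4 of 17 rose and 4 fell (23.5% each), somewhat below the shares of all genes. Igfbp2, an IGF-binding protein, fell (-5.92 ± 0.18) to 0.249 CPM on day 14, against 15.6 CPM on day 4.

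Lipid synthesis genes were lower on day 14. Of 25 cholesterol synthesis genes tested, 21 fell (84%) and 1 rose (4%), with a median of -0.69 against 0 over all genes. The fall was 2-fold or more in 6 (10.2% of all genes). The changes were mostly small and uniform. Hmgcs1, at the entry of the pathway, had 497, 496 and 491 CPM on day 14 and 769, 765 and 763 CPM on day 4, a change of -0.63 ± 0.04. Mvd, mevalonate decarboxylase, had 168, 171 and 164 CPM on day 14 and 482, 476 and 473 CPM on day 4, a change of -1.51 ± 0.07. Idi1, an isomerase of the pathway, rose by 0.24 ± 0.07. Of 24 genes of fatty acid synthesis and storage, 15 fell (62.5%) and 5 rose (20.8%), with a median of -0.41. Scd2, a stearoyl desaturase, had 2176, 2174 and 2157 CPM on day 14 and 4739, 4716 and 4772 CPM on day 4 and fell (-1.13 ± 0.06), and Me1, which supplies NADPH, fell (-1.27 ± 0.05).

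Energy metabolism genes rose more often than they fell, with modest medians. Of 37 glycolysis and hypoxia genes, 22 rose (59.5%) and 5 fell (13.5%), with a median of 0.54. Hk2, an inducible hexokinase, had 126, 132 and 129 CPM on day 14 and 30.7, 31.2 and 30.4 CPM on day 4 and rose by 2.07 ± 0.07, Aldoc, an aldolase, by 2.73 ± 0.12, and Bnip3, a mitophagy receptor induced by hypoxia, by 1.59 ± 0.11. Hif1a, the hypoxia factor, fell (-1.10 ± 0.05), and Gapdh did not pass, at -0.03 ± 0.09. Of 47 nuclear-encoded respiratory chain genes, 27 rose (57.4%) and 3 fell (6.4%), with a median of 0.27, led by Cox5b at 1.05 ± 0.11. Of 12 mitochondrially encoded genes, 6 rose (50%) and none fell, and their summed share of counts is given above.

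Stress programs rose as well. Of 38 genes of the unfolded protein and amino acid response, 24 rose (63.2%) and 5 fell (13.2%), with a median of 0.36. Slc7a11, the cystine importer, had 172, 173 and 172 CPM on day 14 and 28.7, 28.5 and 29.2 CPM on day 4, a change of 2.58 ± 0.11. Chac1, which degrades glutathione, had 142, 146 and 144 CPM on day 14 and 45.1, 47.5 and 45.5 CPM on day 4, a change of 1.64 ± 0.05. Both groups of libraries were tight and apart. Ddit3 (CHOP), a stress-induced factor, rose by 1.18 ± 0.10 and Hspa5 (BiP), the chaperone of the endoplasmic reticulum, by 0.75 ± 0.06, while the amino acid synthesis genes Asns and Psat1 fell (-0.30 ± 0.05 and -0.47 ± 0.05). Of 35 NRF2 and antioxidant genes, 24 rose (68.6%) and 2 fell (5.7%), with a median of 0.52. Prdx6, a peroxiredoxin, rose by 1.76 ± 0.08, Hmox1, heme oxygenase, by 1.17 ± 0.06, and Gstm2, a glutathione transferase, by 2.20 ± 0.06. Sod3, the extracellular superoxide dismutase, fell to 1.55 CPM on day 14, against 87.4 CPM on day 4, a change of -5.81 ± 0.09.

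Of 22 metal-handling genes, 15 rose (68.2%) and 5 fell (22.7%), with a median of 0.67. Steap4, a metalloreductase induced by inflammation, had 328, 336 and 334 CPM on day 14 and 2.99, 2.94 and 3.35 CPM on day 4 and rose by 6.74 ± 0.10. The metallothioneins Mt1 and Mt2 rose by 0.70 ± 0.13 and 1.23 ± 0.13. Fth1, ferritin heavy chain, had 6661, 6519 and 6689 CPM on day 14 and 4422, 4529 and 4427 CPM on day 4 and rose by 0.57 ± 0.11, the largest gain in CPM of any named gene, though its retrocopies make the count uncertain. Slc40a1 (ferroportin), the iron exporter, fell (-3.36 ± 0.25). Of 38 lysosomal genes, 20 rose (52.6%) and 12 fell (31.6%), with a median of 0.34. The cathepsins Ctsc and Ctso rose by 4.38 ± 0.17 and 3.44 ± 0.11 and Ctsh fell (-2.77 ± 0.11). Gpnmb, a glycoprotein of stressed lysosomes and of osteoblasts, had 686, 679 and 691 CPM on day 14 and 18.2, 17.5 and 15.9 CPM on day 4 and rose by 5.31 ± 0.07. Sqstm1 (p62), the autophagy receptor, had 1584, 1574 and 1567 CPM on day 14 and 486, 469.7 and 478 CPM on day 4 and rose by 1.72 ± 0.06.

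Cell cycle genes barely moved in size, although many passed the test. Of 40 genes of G1/S and replication, 10 rose (25%) and 15 fell (37.5%), and of 40 of G2/M and mitosis, 9 rose (22.5%) and 16 fell (40%). No member of either list changed by 2-fold (20.7% of all genes did), and the medians were -0.07 and -0.04. Mki67, the proliferation marker, had 208, 206 and 220.1 CPM on day 14 and 254, 258 and 253 CPM on day 4, at -0.27 ± 0.12 (adjusted p = 0.0646, edgeR), and passed with only the KO libraries, at -0.26. The replication gene Mcm7 fell (-0.76 ± 0.05) and the nucleotide reductase subunit Rrm2 rose by 0.81 ± 0.05. Of 30 CDK inhibitors and p53 targets, 12 rose (40%) and 9 fell (30%), not far from the shares of all genes. Cdkn1a (p21) rose by 0.22 ± 0.05, the Ink4 locus gene Cdkn2a by 0.51 ± 0.13, and Sesn1, a stress sensor, fell (-2.21 ± 0.06). Of 31 replication histone genes, whose mRNAs mostly lack a poly(A) tail, 10 were tested and 8 rose (80%). Of 41 ribosomal protein genes, 9 rose (22%) and 10 fell (24.4%), none by 2-fold.

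Of the genes chosen by the size of change, whether in a list or not, some had no or few counts on 1 of the days. Auts2, a nuclear regulator studied in neurons, had 13.3, 15.1 and 12.2 CPM on day 14 and 0, 0 and 0 CPM on day 4 and was at least 452-fold higher on day 14. Sulf1, an extracellular sulfatase that edits heparan sulfate, had 44.2, 51 and 46.7 CPM on day 14 and 0.0302, 0 and 0.0275 CPM on day 4. Its 2 counts on day 4 gave a ratio of 2379-fold (95% counting interval 658 to 19650). Peg3, an imprinted zinc finger gene, was at least 240.5-fold higher. In the other direction, Slc1a3, a glutamate transporter, had 0.423, 0.457 and 0.277 CPM on day 14 and 124, 126 and 122 CPM on day 4, a change of -8.33 ± 0.18. Cnnm1, of the family of CNNM magnesium transport proteins, had 0, 0.0457 and 0 CPM on day 14 and 46.5, 50.2 and 49.8 CPM on day 4, a ratio of day 4 to day 14 of 3462-fold (95% counting interval 621 to 136800). Olfm1, a secreted olfactomedin, fell (-9.40 ± 0.23), Col23a1, a transmembrane collagen (-8.38 ± 0.23), and Abcg1, a cholesterol exporter, fell to 2 counts, a ratio of day 4 to day 14 of 395-fold (95% counting interval 109 to 3268). Pabpc1, the poly(A)-binding protein, and Vim were among the largest gains in CPM, and the elongation factor Eef1a1 and the mitochondrial synthetase Lars2 among the largest losses. Lars2 fell to 308 CPM on day 14, against 1777 CPM on day 4, a change of -2.53 ± 0.17.

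The same interval in WT cultures shows which of these changes differ between genotypes. KO and WT comparisons share no libraries. In WT, 6075 genes rose (39.7%) and 5335 fell (34.9%), 74.6% in all. The change in KO minus that in WT was positive past the threshold for 4691 genes (30.7%) and negative for 5205 (34%), 64.7% in all. Genes that passed in both genotypes numbered 7411, of which 4647 moved the same way and 2764 opposite ways. Across the 15296 genes, which are not independent, the changes in KO and in WT correlated with Pearson's r of 0.266 and Spearman's rho of 0.230, as a description.

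Many contractile genes went opposite ways in the genotypes. Of 16 smooth muscle genes, 12 fell in KO and 11 rose in WT, 8 of them doing both, while 2 rose in both genotypes and 1 fell in both, with medians of -1.21 in KO and 1.65 in WT. The difference was negative past the threshold for 13 (34% of all genes). Acta2 averaged 488 ± 12.6 CPM on day 14 and 2115 ± 10.1 CPM on day 4 in KO, and 25.8 ± 0.786 CPM on day 14 and 0.438 ± 0.133 CPM on day 4 in WT, so that it changed by -2.12 ± 0.07 in KO and by 5.94 ± 0.12 in WT, a difference of -8.06 ± 0.14 (adjusted p = 9.71e-16, edgeR). Myl9 changed by -3.96 ± 0.10 in KO and by 4.48 ± 0.25 in WT. Acta2 of KO thus stayed above that of WT on both days.

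Most interferon genes, 28 of 35, rose in both genotypes, but levels differed. In WT 30 rose and 2 fell, with a median of 1.46, against 33 and none in KO, with a median of 5.81. The difference was positive past the threshold for 31 (30.7% of all genes). Rsad2 was 1 of the 2 that fell in WT. Rsad2 averaged 71.5 ± 3.73 CPM on day 14 and 0.0198 ± 0.0173 CPM on day 4 in KO and 11.3 ± 1.46 CPM on day 14 and 43.7 ± 1.39 CPM on day 4 in WT, where it fell (-1.95 ± 0.09). Ifi44 averaged 101 ± 4.9 CPM on day 14 and 0.282 ± 0.0889 CPM on day 4 in KO and 15 ± 0.5 CPM on day 14 and 7.64 ± 1.08 CPM on day 4 in WT. On day 14 both genes were higher in KO than in WT, but they do not stand for the levels of the list. In raw counts over a group, not scaled for depth, KO day 14 held the series maximum for Mx1 (763) and Oasl1 (3241). Another group held it for Oas2 (13269, against 714 on KO day 14) and Bst2 (32296, against 11347).

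Bone and matrix genes differed gene by gene. Alpl rose by 3.24 ± 0.09 in KO and 2.53 ± 0.08 in WT, and Spp1 changed by -1.54 ± 0.09 in KO and -1.27 ± 0.09 in WT, a difference of -0.27 ± 0.12 that did not pass (adjusted p = 0.0715, edgeR). Col1a1 rose by 0.33 ± 0.06 in KO and 3.23 ± 0.07 in WT. Mgp rose by 3.97 ± 0.17 in KO and fell (-1.84 ± 0.46) in WT, and Mmp3 did likewise, at 3.41 ± 0.10 in KO and -3.86 ± 0.10 in WT. Unfolded protein and amino acid response genes rose in 24 of 38 cases in KO and in 8 in WT, where 29 fell. G2/M and mitosis genes rose in 9 of 40 cases in KO and in 30 in WT. Antigen presentation, by contrast, rose in 12 of 19 cases in KO and 17 in WT.

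**Figure D5:**
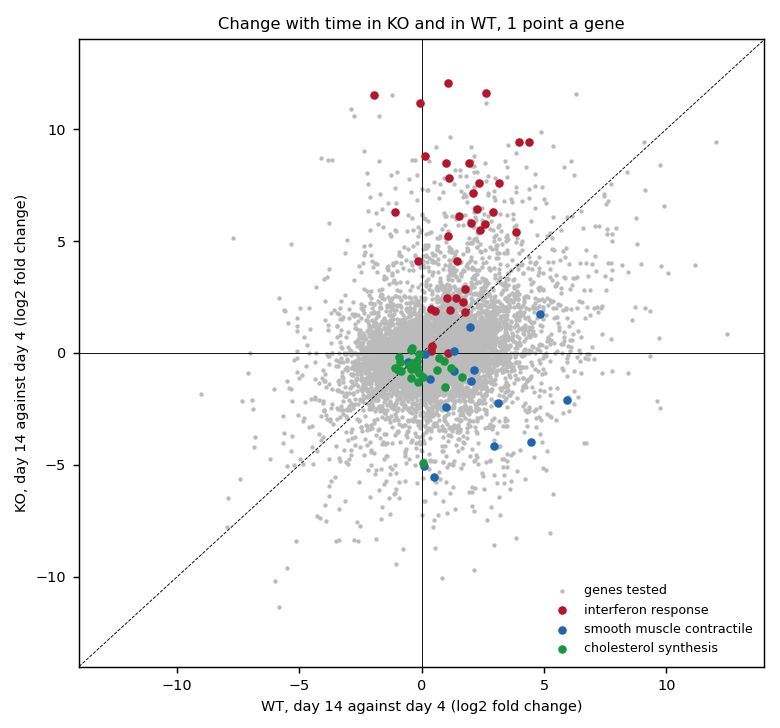
Log2 fold change of day 14 over day 4 in KO (vertical axis) against that in WT (horizontal axis), 1 point for each of 15296 genes tested, with 3 lists in colour; the dashed line marks equal change. Most interferon genes lie above that line and most smooth muscle genes below 0 in KO and above 0 in WT; positions of genes with few counts depend on the fit.

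KO and WT cells also differed on both days in some genes, chosen after their values were seen. Klra4 had 25.7 ± 1.33 CPM on day 14 and 10.3 ± 0.306 CPM on day 4 in KO and no count in WT, and Fam111a had 161 ± 4.55 CPM on day 14 and 59 ± 0.424 CPM on day 4 in KO and 0.093 ± 0.0462 CPM on day 14 and 0 ± 0 CPM on day 4 in WT. Rps4l, a relative of the ribosomal protein gene Rps4x, had no count in KO and 13 ± 1.15 CPM on day 14 and 14.3 ± 1.24 CPM on day 4 in WT. A difference between KO and WT cannot be told apart here from a difference between the cell lines.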

How the data were processed

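Mouse RNA was measured by sequencing of libraries from TruSeq RNA Library Prep Kit v2, which selects poly(A) RNA and does not mark strand, so reads of overlapping antisense genes cannot be told apart. The authors deposited raw counts per gene, 1 file per library. Per the submitters' processing notes, TopHat2 2.1.0, GRCm38.p4, HTSeq and DESeq2 were used; the sources used here do not give their other settings, strand handling included. GENCODE M21 gave symbols and coordinates to 46091 of 46603 gene IDs; the other 512 IDs held 0.051% of counts.

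Groups came from the labels. edgeR 4.0.16 (R 4.3.3) fitted all 15 libraries in 5 groups after filterByExpr, with TMM scaling and robust quasi-likelihood F tests; 15296 genes were tested, and the common biological coefficient of variation was 8.33%. P-values were adjusted by Benjamini-Hochberg over all genes of a comparison. Replicates differed by more than sampling noise (chi-square per degree of freedom 2.15 to 2.52 over genes in KO). For a group with no count, a fold is a bound with 3 counts over the group; with 1 to 3 counts it is a ratio with a 95% counting interval. These limits take in counting error alone. KO libraries of day 4 were 1.42 times as deep as those of day 14 on average.

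The comparison, the 48 lists of genes and the naming rule were chosen with earlier results of these data known, and some lists share members. Named by rule are the 6 actins, the 10 largest increases and decreases in KO with at least 10 CPM in the higher group, no overlap and no predicted name, the 8 largest gains and losses in CPM, the 4 risen and 4 fallen genes of a list that ranked best by adjusted p, 25 well-known genes and the 6 largest differences from WT in each direction. Other list members and genes of interferon signalling, nucleic acid sensing, osmolytes, chaperones, autophagy and cell line were picked after their values were seen. Some genes that the rule or the lists name are not reported here.

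Alternatives were DESeq2 1.42.0, RLE scaling, 2 other filters, a fit of the compared groups alone, a fit blocked on replicate number, and leaving out each library in turn. A correction for exon length and GC content was chosen after seeing the data. On simulated counts with 200 genes changed between the KO groups, 72%, 90%, 98% and 100% of genes changed 1.5, 2, 4 and 8-fold were recovered, and 8 of 14825 unchanged genes were called. Only those 200 genes differed there, whereas 60.9% of genes were called in the data. These rates therefore describe that setting and not the comparison itself.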

Additional observations from a re-analysis of the deposited data

Results flagged for a closer look

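For the 40 genes set side by side between genotypes with over 3 counts in each of 4 groups, the test of the difference itself was made (edgeR, Benjamini-Hochberg), and 36 passed, the largest adjusted p among them being 0.0418. Some of these genes were chosen for the size of this very difference and the rest with their values known, and 64.7% of all genes passed, so the number that passed is a description and no evidence about them. Values here are the log2 change with time in KO minus that in WT, and no explanation was weighed.

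Opposite changes, past the threshold in each genotype, were found for 17 genes. Those that rose in KO and fell in WT differed by 12.83 for Olr1, a scavenger receptor for oxidized lipoprotein, 7.27 for Mmp3, 5.81 for Mgp, 4.19 for Slc7a11, 3.42 for Chac1, 2.85 for Sqstm1, 2.48 for Mt2, 2.32 for Sox9, 1.16 for Cdkn1a and 1.01 for Mt1. Those that fell in KO and rose in WT differed by -2.93 for Actb, -3.40 for Tagln, -4.43 for Pdgfrb, -8.06 for Acta2, -8.39 for Cyba, a subunit of the NADPH oxidase, -8.45 for Myl9 and -8.88 for Pianp, a neural membrane protein. Olr1 changed by 5.14 ± 0.39 in KO and -7.69 ± 0.28 in WT, and Cyba by -5.44 ± 0.25 in KO and 2.96 ± 0.13 in WT.

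Among the others, the change was more positive in KO by 7.48 for Ifi44, 5.14 for Gpnmb, 3.51 for Il33, 3.40 for Irf7, 2.65 for Fabp4, 1.77 for Axin2, 1.11 for Runx2, 0.71 for Alpl and 0.40 for Col3a1. It was more negative in KO by -8.37 for Olfm1, -2.91 for Akr1b3, -2.89 for Col1a1, -1.27 for Pparg, -0.77 for Actg1, -0.49 for Mki67, -0.47 for Saa3, -0.43 for Hmgcs1, -0.30 for Tsc22d3 and -0.26 for Sparc.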

How the results depend on the processing

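No count of genes that rose or fell moved by 1.5 times or more under the alternatives run. In KO, day 14 against day 4, DESeq2 called 4962 genes higher and 4629 lower, RLE scaling 4803 and 4516, no filter beyond 1 count 4705 and 4875, a filter of 1 CPM in 3 samples 4436 and 4425, and only the KO groups 5498 and 5474. The length and GC correction, chosen after seeing the data, gave 5014 and 4965. Without 1 library, 4327 to 4377 rose and 4233 to 4285 fell. The replicate numbers do not pair the libraries (correlation of residuals of same-numbered KO libraries -0.004, -0.014 and -0.006), and in the fit of only the KO groups the number as a block gave 5421 and 5389, against the 5498 and 5474 without it. No named gene that passed in the fit of all 15 libraries or in an alternative changed direction between them. Calls were lost in 33 and gained in 26 of 5652 comparisons of a named gene with an alternative, among them those of Ccn2, Ier5, Fosl2, Tbk1 and Trp63 (lost) and Actg1, Mki67, Jak1, B2m, Yap1 and Tead1 (gained). Of 1248 list counts, 49 moved by more than 1.5 times; ribosomal protein genes, 9 higher and 10 lower, were 16 and 21 with only the KO groups. The causes were not tested. Depth limits genes with few counts, whose folds are bounds or wide ratios.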

Other observations

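Some genes that handle osmolytes fell in KO. They were picked after their values were seen, so they say nothing of such genes as a group. Akr1b3 (ENSMUSG00000001642, chr6:34302434-34317478, minus strand), the aldose reductase that makes sorbitol, had 26.7, 27 and 23.9 CPM on day 14 and 819, 829 and 800.3 CPM on day 4, a change of -4.98 ± 0.08 (adjusted p = 1.78e-16, edgeR, lower in 3 of 3 libraries). Slc5a3, the importer of myo-inositol, had 52.7, 54.9 and 53.2 CPM on day 14 and 311, 304 and 322 CPM on day 4, a change of -2.54 ± 0.09. Libraries of the 2 days were far apart for both. The importers Slc6a12 (betaine) and Slc6a6 (taurine) fell (-1.83 ± 0.11 and -0.81 ± 0.13), as did Nfat5, the transcription factor of the hypertonic response (-1.26 ± 0.21). Hspa4l, a chaperone of the same response, fell to 191 CPM on day 14, against 1321 CPM on day 4, and the related Hsph1 to 187 CPM on day 14, against 799 CPM on day 4. In WT, Akr1b3 changed by -2.07 ± 0.07 and Slc5a3 by -4.00 ± 0.10, in the same direction.

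Prostaglandin genes went both ways. Of 15 tested, 5 rose and 5 fell, near the shares of all genes, with a median of 0.14. Ptgs2 and Ptgs1, the cyclooxygenases that commit arachidonic acid to the pathway, fell, Ptgs2 with 152, 155 and 154 CPM on day 14 and 595, 598 and 606 CPM on day 4 (-1.96 ± 0.05) and Ptgs1 at -2.03 ± 0.07. Ptgis, the prostacyclin synthase, fell to 0.0577 CPM on day 14, against 5.32 CPM on day 4, a change of -6.44 ± 0.32. Ptgds, a prostaglandin D synthase, fell too (-2.55 ± 0.29). Ptges, a prostaglandin E synthase, rose by 1.32 ± 0.08, and Ptgir, the prostacyclin receptor, by 1.90 ± 0.37.

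In tubulins and intermediate filaments, 11 of 23 genes rose (47.8%) and 10 fell (43.5%). Tuba1a fell (-1.87 ± 0.07), as did Tubb3, a tubulin of neurons (-3.37 ± 0.27), while Lmna, of the nuclear lamina, rose by 1.26 ± 0.05. The simple epithelial keratin Krt18 fell to 0.0727 CPM on day 14, against 4.03 CPM on day 4.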
